A study of Mus musculus with 6 samples.

Results

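The striatal projection neuron genes are 9 genes taken as marks of the medium spiny neurons of the striatum: Penk, Tac1, Pdyn, Drd1, Adora2a, Ppp1r1b, Rgs9, Pde1b and Gng7. They were followed through every probe set whose annotation held 1 of these symbols and no other. Of the 9 genes, 5 were found this way, with 8 probe sets, among 8251 genes with such a probe set. Penk had 3 probe sets, Pdyn 2, and Tac1, Rgs9 and Pde1b 1 each. Drd1, Adora2a, Ppp1r1b and Gng7 were not analysed here. The rule took probe sets by gene name, but the genes themselves were chosen with earlier results of these data known.

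The arrays measured total brain RNA of 6 male C57BL/6J mice, each brain on its own one-colour Affymetrix array. The knockout group held 3 mice with a constitutive knockout of Ncam1 (Ncam-/-), which encodes the neural cell adhesion molecule, and the wild-type group (Ncam+/+) 3 mice of the same genetic background, with no other allele or treatment given. Replicates 1 and 2 of either genotype were aged 2 months, and replicate 3 was aged 3 months. The knockout was present in all tissues throughout life, and the striatum is a small part of the tissue that was homogenised.

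Medium spiny neurons are the GABAergic output cells of the striatum and fall into 2 pathways. Neurons of the direct pathway carry the dopamine receptor Drd1 and make the peptides substance P, from Tac1, and dynorphin, from Pdyn. Neurons of the indirect pathway carry Drd2 and the adenosine receptor Adora2a and make enkephalin, from Penk. Dopamine and adenosine act in both through cyclic AMP, which the phosphodiesterase Pde1b breaks down, while Rgs9 speeds the shut-off of G proteins. The peptide genes are also active in other regions, among them the hypothalamus and, for Tac1 and Penk, the olfactory bulb. In total brain, fewer cells of a type and less RNA per cell cannot be told apart.

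Promoter sequences were taken from a RefSeq table of build GRCm38.p6, in which 6 of the 9 genes were matched by symbol. The 250 bases before the annotated start of Tac1 and of Pdyn are shown because both peptide genes belong to the direct pathway, yet their array profiles differed, as described further on. The Tac1 stretch is chr6:7554811-7555060 on the plus strand and the Pdyn stretch is chr2:129699939-129700188 on the minus strand, in front of the more distal of 2 annotated starts. Both are written 5′ to 3′, and capitals mark the letters TGACG on either strand, a core part of the cyclic AMP response element TGACGTCA.
Tac1: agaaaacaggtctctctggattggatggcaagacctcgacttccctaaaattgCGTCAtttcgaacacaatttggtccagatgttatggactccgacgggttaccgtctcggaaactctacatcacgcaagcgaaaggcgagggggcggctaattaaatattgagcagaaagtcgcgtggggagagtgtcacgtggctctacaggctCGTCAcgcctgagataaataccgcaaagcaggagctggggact
Pdyn: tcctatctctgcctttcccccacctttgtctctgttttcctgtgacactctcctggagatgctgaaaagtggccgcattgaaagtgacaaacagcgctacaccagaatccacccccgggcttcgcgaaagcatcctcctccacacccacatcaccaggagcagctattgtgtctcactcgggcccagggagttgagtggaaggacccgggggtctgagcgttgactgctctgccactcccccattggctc
The Tac1 stretch held this core 2 times, read as CGTCA, with its first base 197 and 43 bases before the start, and 0 copies of the whole element. The Pdyn stretch held neither motif, nor did that before the other Pdyn start, the 3 Pde1b stretches, the 2 Drd1 stretches or the Rgs9 stretch. Of the 2 Gng7 stretches 1 held the core. Among 32851 stretches of the same length before RefSeq starts, 17.8% held the core and 1.55% the whole element, and every whole element contains the core. A match of letters is a description of the sequence only.

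Values are linear signals per probe set, already scaled array by array when deposited, and comparisons are knockout minus wild type in log2(signal + 16). Probe sets with a mean log2 value under 6.46, a signal of about 72.2, were not tested, which left 7453 probe sets, 6 of them of 4 members. The targeted gene was checked first, and its brightest probe set read 208.7 to 327.4 in the knockout group and 1216 to 1448 in the wild-type group (log2 difference -2.26 ± 0.15 (SE), adjusted p = 0.00076 in limma). Markers of all neurons were bright on every array, with a summed signal over 8 genes of 23796 to 24568 among knockouts and 23748 to 25030 among wild types. On knockout replicate 2 the 11 tested cerebellar markers summed to 1944, against 7889 and 8875 in the other knockout and 8238 to 9026 in the wild-type brains, and 10 of the 11 were lowest there. On knockout replicate 1 the pituitary markers lay 2.64 above the wild-type mean on the log2 scale by their median. The Gapdh controls, a sign of RNA quality, had a 3′ to 5′ ratio of 0.811 to 0.826 among knockouts and 0.768 to 0.798 among wild types. These ranges did not overlap. The same ratio of the actin controls did overlap, at 1.14 to 1.22 among knockouts and 1.08 to 1.20 among wild types. The part of either ratio in the results below was not tested. Results are given with and without knockout replicate 2, the array with the low cerebellar markers.

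No striatal projection neuron gene passed the test of knockout against wild type. Penk, Tac1 and Pde1b had higher means in knockout brains, with 1 animal, knockout replicate 2, above all others, and Pdyn showed no such excess. Of the 6 tested probe sets 0 were called at an adjusted p under 0.05 and 0 had an unadjusted p under 0.05 in limma, where 0.0268% and 6.94% of all tested probe sets did. The groups overlapped for all 6 probe sets. Over all tested probe sets 6.08% had every knockout above every wild-type animal and 6.80% every knockout below. Exact two-sided permutation tests gave 0.3 for Tac1, 0.4 for Pde1b, 0.5 for both Penk probe sets and 1 for both of Pdyn, where 3 against 3 animals cannot give less than 0.1.

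Penk, the precursor of the enkephalins and the peptide of the indirect pathway, read 4668, 5570 and 4782 in knockout replicates 1, 2 and 3 and 4760, 4791 and 4645 in wild-type replicates 1, 2 and 3 by its brightest probe set. The 5 arrays other than knockout replicate 2 lay within 1.03-fold of each other, while that array stood 1.18-fold above their mean. The group means were 5007 ± 491 (SD, n = 3) in knockout and 4732 ± 76.5 in wild-type brains, a log2 difference of 0.08 ± 0.07 (SE) (adjusted p = 0.843 in limma). Without knockout replicate 2 the difference was -0.002 with a 95% interval of -0.12 to 0.12. This probe set is of a kind, marked _f_at, that may also detect related transcripts. A dimmer one, marked _r_at for looser design rules, read 159, 240.8 and 220.4 in the knockouts and 214.9, 220.1 and 146.8 in the wild types. Knockout replicate 2 was again highest, and wild-type replicate 3 and knockout replicate 1 were lowest in both probe sets, by a wider margin in the dimmer one. Its difference was 0.09 ± 0.19 (adjusted p = 0.94 in limma), and the correlation of both probe sets over the 6 arrays was 0.64. The third Penk probe set read between 2.57 and 10.2 and was not tested.

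Tac1, the precursor of substance P and neurokinin A, read 391, 506.3 and 360.4 in knockout replicates 1, 2 and 3 and 363.3, 387.3 and 342.5 in wild-type replicates 1, 2 and 3. Knockout replicate 2 was 1.37-fold above the mean of the other arrays, which lay within 1.14-fold of each other, and the other knockout animals lay within or just above the wild-type range. The means were 419.2 ± 77.0 (SD, n = 3) and 364.4 ± 22.4, a log2 difference of 0.18 ± 0.13 (SE) (adjusted p = 0.802 in limma). Without knockout replicate 2 it was 0.04 ± 0.10, with a 95% interval of -0.19 to 0.28.

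Pdyn, the precursor of the dynorphins, differed from Penk and Tac1 in its array pattern. Its brighter probe set gave 217.2, 212.7 and 208.4 for knockout replicates 1, 2 and 3, and 257.1, 203.2 and 203.5 for the wild types. The highest array was wild-type replicate 1, and knockout replicate 2 lay between the other knockout animals. The second probe set read 149.9, 158.8 and 156.6 against 181.4, 148.1 and 145.3, with wild-type replicate 1 again highest, and both probe sets correlated at 0.93 over the 6 arrays. Their log2 differences were -0.04 ± 0.12 (adjusted p = 0.952 in limma) and -0.02 ± 0.13 (adjusted p = 0.986). Removing knockout replicate 2 left them at -0.04 and -0.04.

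Among the intracellular members, Pde1b, a calmodulin-dependent phosphodiesterase that breaks down cyclic nucleotides, read 1766, 2067 and 1594 in knockout replicates 1, 2 and 3 and 1637, 1656 and 1602 in wild-type replicates 1, 2 and 3. Knockout replicate 2 was 1.25-fold above the mean of the others, knockout replicate 1 was second, and knockout replicate 3 was the lowest of all 6. The means were 1809 ± 239 (SD, n = 3) and 1631 ± 27.5, a log2 difference of 0.14 ± 0.09 (SE) (adjusted p = 0.789 in limma), and 0.04 ± 0.07 without knockout replicate 2. Rgs9, the G protein regulator of striatal neurons, read only 6.38 to 12.1 on any array and was not tested.

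**Figure D1:**
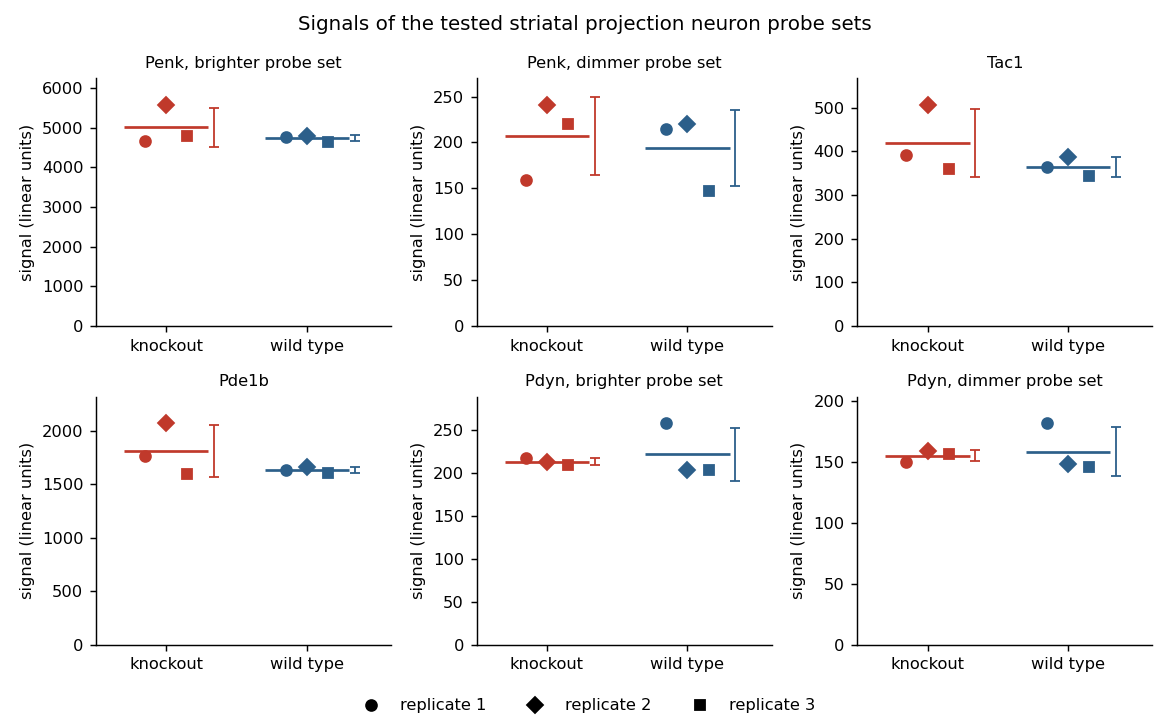
Signal in linear units of the 6 tested probe sets of Penk, Tac1, Pde1b and Pdyn, 1 point per animal, with the group mean as a line and the SD as a bar (n = 3). Knockout replicate 2 is highest for both Penk probe sets, Tac1 and Pde1b, and wild-type replicate 1 for both Pdyn probe sets.

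Knockout replicate 2 was the highest of the 6 arrays for 4 of the 6 tested probe sets, where it was highest for 19.1% of all tested probe sets. Its distance to the next array was 0.22 on the log2 scale for the brightest Penk probe set, 0.36 for Tac1, 0.23 for Pde1b and 0.12 for the dimmer Penk probe set. Over the 1425 probe sets for which this array was highest the median distance was 0.07 and the upper quartile 0.14. Over the 6 arrays Penk correlated with Tac1 at 0.94 and with Pde1b at 0.89, and Tac1 with Pde1b at 0.97, in log2 values of the brightest probe sets. Pdyn correlated with these at -0.09 to -0.05. Over the 5 arrays without knockout replicate 2 Penk correlated with Tac1 at 0.27 and with Pde1b at -0.32, and Tac1 with Pde1b at 0.81. These values describe 6 or 5 arrays that share their scaling.

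The members' level on knockout replicate 2 was set beside markers of other brain regions and cell types. The median log2 deviation from the wild-type mean of Penk, Tac1, Pdyn and Pde1b was 0.29 on the array of knockout replicate 2, 0.04 and -0.02 on those of knockout replicates 1 and 3, and -0.06 to 0.02 on the wild-type arrays. Over 15 tested genes of cortex and hippocampus it was 0.24 for knockout replicate 2, 0.07 and -0.07 for the other knockouts and -0.04 to 0.03 for the wild types. This array was highest for 12 of these 15 genes, and their summed signal was 15855 there against 12170 to 13612 elsewhere. Cck, a cortical peptide and the brightest of them, read 4025 in knockout replicate 2 and 2996 to 3494 on the other arrays. Lmo4, a transcription cofactor, read 2239 there, 2009 and 1724 in the other knockouts, and 1316 to 1664 in wild-type brains. It was the 1 of the 15 genes with every knockout above every wild-type animal, against 325 of all 5665 tested genes. For 0 of the 15 every knockout was below, against 401 of all. The Lmo4 difference was 0.41 ± 0.11 (SE) (adjusted p = 0.538 in limma), and 0.32 without knockout replicate 2. Lists of related genes, which overlap in part and are not confined to these neurons, had lower medians on this array than the members. The medians were 0.11 over 7 tested striatum-enriched genes, 5 of them highest there, 0.13 over 21 tested signalling genes and 0.12 over 4 tested genes of the peptide system. Not every group was higher on this array. The median was 0.06 for 5 hypothalamic genes, -0.09 for 4 thalamic genes, 0.01 for 8 general neuronal genes, -0.24 for 6 astrocyte genes and -0.21 for 4 oligodendrocyte genes. The last 2 lists were not low on this array alone. In knockout replicates 1 and 3 astrocyte genes stood at -0.11 and -0.16, and oligodendrocyte genes at -0.14 and -0.32. On the wild-type arrays they stood at -0.08 to 0.08 and -0.04 to 0.02. On knockout replicate 2 the median was 0.12 for 3 olfactory bulb genes, 0.09 for 4 microglial genes, 0.08 for 4 vascular genes, 0.21 for 6 pituitary genes and -0.43 for 3 choroid plexus genes. The olfactory bulb genes did not move alike. Their summed signal was lowest on this array, at 1554 against 1742 to 2080 elsewhere, and 0 of the 3 were highest there. The cerebellar median was -1.72, with Zic1, a granule cell transcription factor, at 825 against 1963 to 2390 elsewhere, and Car8, a Purkinje cell gene, at 105.7 against 1066 to 1803. No marker was listed at 0. The part of the cerebellar and cortical values in the striatal ones was not tested, and the median over all 5665 genes was 0.002 on this array, since every array was scaled to 1 level.

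**Figure D2:**
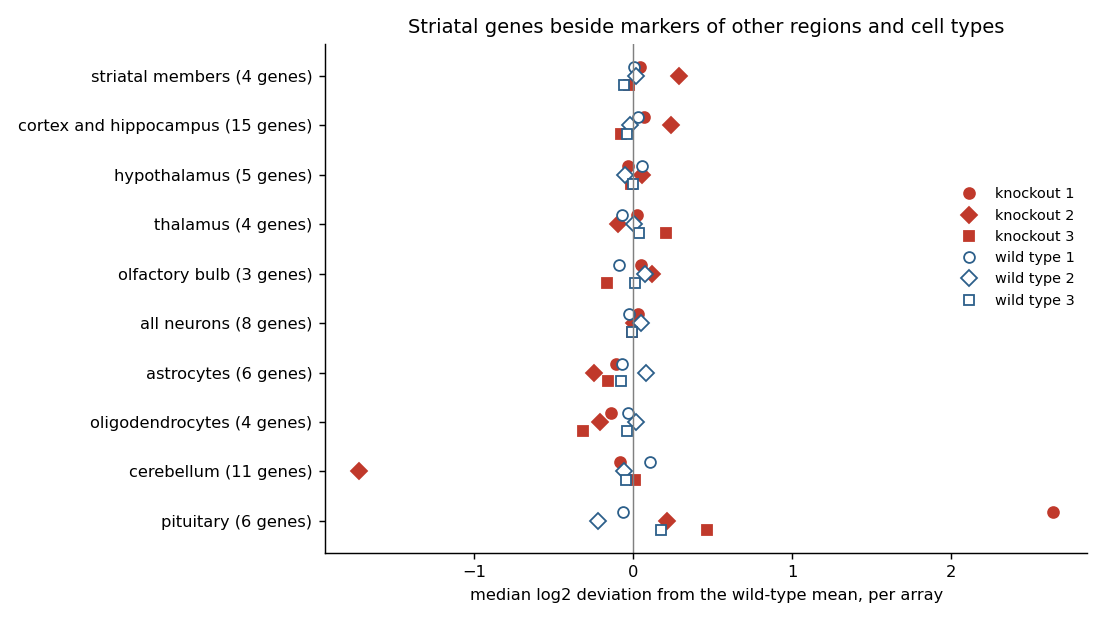
Median log2 deviation from the wild-type mean on each array, for the 4 tested striatal members and for markers of other regions and cell types. Knockout replicate 2 stands at 0.29 for the striatal members and 0.24 for cortex and hippocampus, beside -1.72 for cerebellum, and knockout replicate 1 at 2.64 for pituitary.

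Each array was also centred on the cortical and hippocampal genes, which subtracts 1 value per array from all probe sets alike. The deviation of knockout replicate 2 from the wild-type mean therefore fell by the same amount for every probe set, whatever the gene. On that scale the deviation of knockout replicate 2 was -0.02 for the brightest Penk probe set, 0.21 for Tac1, 0.09 for Pde1b and -0.30 for Pdyn. On this array Tac1 stayed above its highest wild-type value of 0.09, and Pde1b above its own of 0.02. For Pde1b knockout replicates 1 and 3, at 0.03 and 0.05, were also above that wild-type value. Before centring the groups overlapped for Pde1b. The share of all probe sets separated on the centred scale was not counted, so this separation has no background here. For the brightest Penk probe set knockout replicate 3 was the highest array, at 0.10. The genotype differences on that scale were -0.01 ± 0.09 (SE) for Penk, 0.10 ± 0.12 for Tac1, 0.06 ± 0.09 for Pde1b and -0.13 ± 0.16 for Pdyn, with adjusted p values in limma of 0.941 to 0.994. This centring moved the median difference of all probe sets to -0.08.

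Without knockout replicate 2 no member passed the test of knockout against wild type either. Of the 6 probe sets 0 were called and 0 had an unadjusted p under 0.05 in limma, where 0.0268% and 9.57% of all tested probe sets did. All 6 overlapped between the groups, where 13.9% of tested probe sets had both knockout above all wild-type animals and 14.0% had both below. The median difference of the 4 members was 0.02, against 0.11 with all arrays, and the medians over all tested genes were 0.001 and -0.002. The 95% intervals without that array ran from -0.12 to 0.12 for the brightest Penk probe set and -0.51 to 0.46 for the dimmer one. They ran from -0.13 to 0.21 for Pde1b and -0.19 to 0.28 for Tac1. For the brighter and dimmer Pdyn probe sets they were -0.36 to 0.27 and -0.37 to 0.30.

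**Figure D3:**
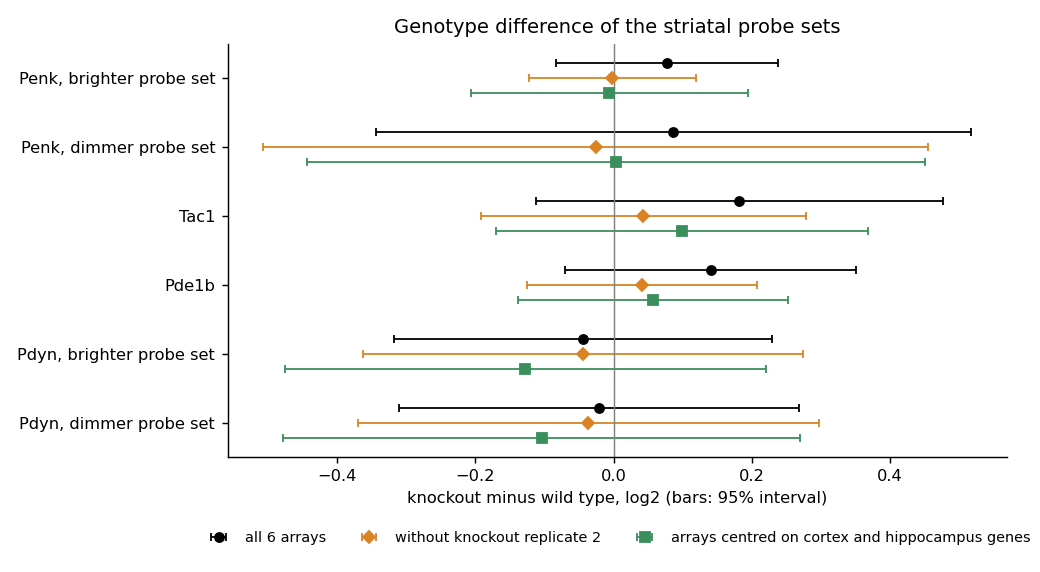
Knockout minus wild-type log2 difference with its 95% interval for the 6 tested probe sets, with all 6 arrays, without knockout replicate 2, and with arrays centred on cortical and hippocampal genes. Every interval includes 0, and the Tac1 value goes from 0.18 to 0.04 without knockout replicate 2.

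Age was compared between different animals, those aged 3 months against those aged 2 months, with genotype in the fit. All 6 member probe sets had lower means at 3 than at 2 months, as did 48.9% of all tested probe sets, and 0 of the 6 passed in limma, where 0.0268% of all did, with 0 at an unadjusted p under 0.05 (12.4% of all). The differences were -0.21 ± 0.12 (SE) for Tac1 and -0.15 ± 0.09 for Pde1b, each with an adjusted p of 0.493 in limma. They were -0.07 ± 0.07 and -0.18 ± 0.20 for the brighter and dimmer Penk probe sets and -0.10 ± 0.12 and -0.07 ± 0.13 for those of Pdyn. In wild-type brains Tac1 read 342.5 at 3 months against 363.3 and 387.3 at 2 months, and in knockout brains 360.4 against 391 and 506.3. Without knockout replicate 2, itself a 2-month-old animal, all 6 were still lower (49.5% of all tested), with 0 called (0.0403% of all). The values were then -0.12 ± 0.09 for Tac1, -0.09 ± 0.06 for Pde1b, -0.01 ± 0.05 and -0.11 ± 0.21 for Penk, and -0.11 ± 0.13 and -0.07 ± 0.15 for Pdyn. The genotype difference was not found to depend on age in the interaction test, with 0 members called (0.0268% of all), 0 at an unadjusted p under 0.05 (5.70% of all) and adjusted p values of 0.857 to 0.983 in limma. Only 1 animal of each genotype, replicate 3, was 3 months old, so age cannot be told apart from that replicate number.

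The wider signalling pathway of these neurons gave no call, and Ptpn5 had its lowest p. Of 33 listed receptors, G proteins, kinases, phosphatases and phosphodiesterases 25 were on the array and 21 were tested. Among them 15 had higher and 6 lower means in knockout brains with a median log2 difference of 0.07, or 12 higher and a median of 0.03 without knockout replicate 2, and 0 passed in either direction in limma, where 1 of all 5665 tested genes passed, Ncam1 itself. Ptpn5, the striatum-enriched phosphatase STEP, read 718.1, 968.2 and 817.6 in knockout against 696.4, 711 and 700.7 in wild-type replicates 1, 2 and 3. Every knockout animal was above every wild-type animal, and knockout replicate 2 was highest. Its difference was 0.23 ± 0.11 (SE) (adjusted p = 0.724 in limma) and 0.12 without knockout replicate 2, and a dim second probe set read 11.2 to 65.2 and was not tested. Pde4b, another cyclic AMP phosphodiesterase, had -0.24 ± 0.12, Prkaca, a catalytic subunit of protein kinase A, 0.14 ± 0.08, and Ppp1cc, a phosphatase 1 catalytic subunit, 0.14 ± 0.08. Drd2, the dopamine receptor of the indirect pathway, read 202.2, 257.2 and 217 in the knockouts and 256.1, 225.3 and 235.1 in the wild types. The groups overlapped, with a difference of -0.08 ± 0.12 (adjusted p = 0.903 in limma), or -0.18 without knockout replicate 2. Knockout replicate 2 was highest for 11 of the 21 genes. For 4 of the 21 every knockout was above every wild-type animal, against 325 of all 5665 tested genes. For 0 of the 21 every knockout was below, against 401 of all.

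Other genes enriched in the striatum included 2 transcription factors that were separated by genotype without passing. Of 29 listed genes 14 were on the array and 7 were tested, with 4 higher, 3 lower, a median of 0.02 and 0 called in either direction. For 3 of the 7, Ptpn5 among them, every knockout was above every wild-type animal, against 325 of all 5665 tested genes. For 0 of the 7 every knockout was below, against 401 of all. Without knockout replicate 2 the median was 0.11, with 4 higher. Foxp1, a forkhead factor of striatal neurons, read 237.3, 298.7 and 248.5 in the knockouts and 212.4, 191.5 and 225.8 in the wild types. All knockout values were higher, with a difference of 0.29 ± 0.12 (SE) (adjusted p = 0.719 in limma), and 0.20 without knockout replicate 2. Its second probe set overlapped between groups, with 0.14 ± 0.14, and 0.01 without that array. Meis2, a homeobox factor, read 120.2, 142 and 131.5 against 115.7, 107.1 and 99.1, again without overlap, with 0.26 ± 0.14 (adjusted p = 0.743), and 0.20 without knockout replicate 2. Foxp1 and Meis2 are also active in cortex and other regions.

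Of the enzymes and receptors that handle the peptides, 13 were listed, 11 were on the array and 4 were tested. Their median difference was 0.01, with 3 higher, 1 lower and 0 called in limma. Without knockout replicate 2 it was -0.11, with 0 of the 4 higher. Pcsk1n, the inhibitor of a prohormone convertase, read 2499, 2210 and 2472 in the knockouts and 2600, 2575 and 3269 in the wild types. Every knockout value was lower, with -0.23 ± 0.10 (SE) (adjusted p = 0.719 in limma), and -0.17 without knockout replicate 2. Every knockout was below every wild-type animal for this 1 of the 4 genes, against 401 of all 5665 tested genes. Cpe, which trims peptide precursors, had 0.02 ± 0.09, Scg5, a convertase chaperone, 0.02 ± 0.07, and Tacr2, a neurokinin receptor, 0.00 ± 0.31.

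The arrays on which the members were high or low were compared with other genes by the Pearson correlation over the 6 arrays with the mean profile of Penk, Tac1, Pdyn and Pde1b. Among 2217 probe sets that spanned at least 0.5 on the log2 scale, the 6 most similar were of Marveld1 (0.99), Tbr1 (0.97), Enoph1 (0.97), Cx3cl1 (0.95), Vamp7 (0.95) and Dbt (0.94). All 6 were highest in knockout replicate 2, as was the members' profile used to pick them, so this follows largely from the choice. Tbr1, a transcription factor of cortical glutamatergic neurons, read 1034, 1482 and 890.6 in the knockouts and 1102, 1051 and 818.5 in the wild types. Its genotype difference was 0.17 ± 0.18 (SE) (adjusted p = 0.851 in limma), and -0.03 without knockout replicate 2. The Cx3cl1 probe set was of a kind designed under looser rules. Correlations this high over 6 arrays were picked from many probe sets and describe only these arrays.

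**Figure D4:**
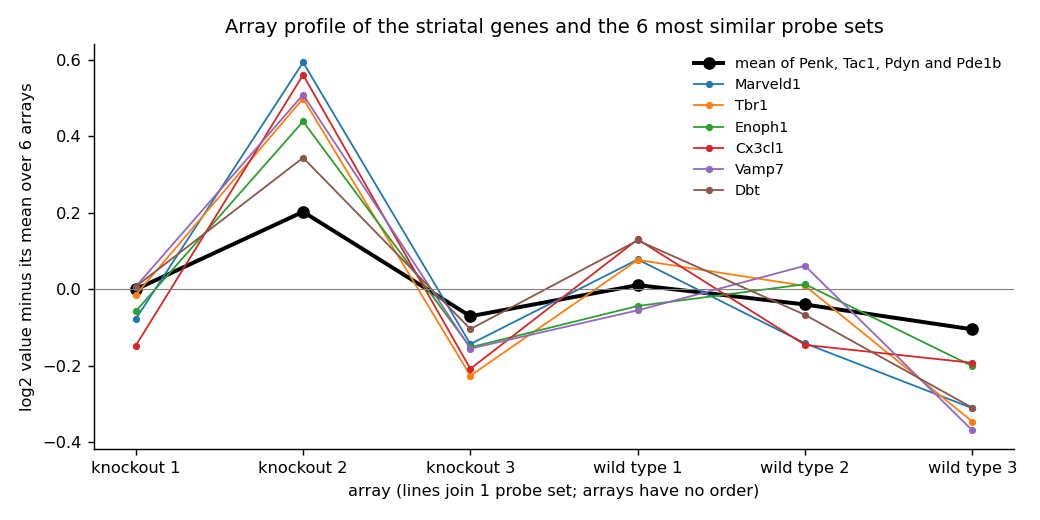
Log2 value minus its mean over the 6 arrays for the average of Penk, Tac1, Pdyn and Pde1b (black) and for the 6 probe sets with the most similar profile. All are highest in knockout replicate 2, where the members' average, by which the 6 were picked, is 0.20. The members' average is lowest in wild-type replicate 3, at -0.10.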

How the data were processed

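Total RNA from 6 dissected brains was labelled with biotin and hybridised to one-colour Affymetrix arrays, as the labels' protocols state. The submitters' processing notes name GCOS 1.4, with the signal algorithm not given in the sources used here. What was deposited are linear intensities per probe set, already brought to 1 level per array by the authors, as far as the values show. Apart from 66 controls there were 12422 probe sets, of which 10833 had 1 gene symbol, 396 several and 1193 none in a platform annotation that can be old. The small number of arrays limits precision, and the standard error of the genotype difference had a median of 0.12 (log2).

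Signals were transformed to log2(signal + 16), which understates changes of dim genes, and probe sets under the 40th percentile of mean log2 value were not tested. limma 3.58.1 in R 4.3.3 (lmFit, eBayes with intensity trend, two-sided) gave differences and p values, with Benjamini-Hochberg adjustment over 7453 probe sets at 0.05. Lists used the brightest tested probe set of a gene. On simulated data with 200 of 7453 probe sets changed, the genotype test recovered 42.6% of changes of 0.5, 85.4% of changes of 1 and 97.7% of changes of 2 (log2), with 3.94% false calls. Members and lists were chosen with earlier results of these data known. Genes were named by rule: all members, Ncam1, Drd2, up to 4 lowest p values of each pathway list, the 2 brightest cerebellar and cortical genes and the 6 most similar profiles. Those in the closing section were chosen after their values were seen. Alternatives were a replicate block, age in the fit, 2-month-old animals only, each array left out, 3 other scalings, pseudocounts of 1 and 64, no filter or the 60th percentile, no trend, array weights and averaging the probe sets of a gene. Figures used matplotlib 3.10.9.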

Additional observations from a re-analysis of the deposited data

How the results depend on the processing

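The count of 0 called member probe sets held under all 19 alternatives to the genotype comparison in limma. The median log2 difference of the members was 0.11, and 0.02 to 0.17 over the alternatives, lowest without knockout replicate 2 and highest without knockout replicate 3. The value was above 0 for Tac1 and Pde1b under all 19 alternatives and for the brightest Penk probe set under 17. For the brighter Pdyn probe set it was below 0 under 18, the exception being without wild-type replicate 1 (0.06). The dimmer Penk probe set was above 0 under 14 of the 18 alternatives that gave it a value. The dimmer Pdyn probe set was below 0 under 15 of 17. Only the fit without knockout replicate 2 left that animal out, so these alternatives are not independent. Adjusted p values of the members ranged from 0.562 to 0.999. Leaving out each array in turn gave 1 to 2 called probe sets in all, against 2 with all arrays. The count was 1 after quantile normalisation, median centring, no filter or no intensity trend, and 4 with array weights. With the probe sets of a gene averaged, limma called 0, with 363 at an unadjusted p under 0.05. Same-numbered animals of both groups correlated at 0.01, 0.15 and 0.20 in their deviations, and animals of unlike number at -0.22 to 0.08. Replicate 3 was aged 3 months in both groups, so for it number and age cannot be told apart. Every animal but knockout replicate 1 correlated best with its own number. These values were low, and the numbers were not taken as pairs in the main fit. The fit with the replicate number as a block called 2 probe sets in all and 0 members, with a members' median of 0.11. The age comparison called 0 members with and without knockout replicate 2, the second chosen after seeing the data.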

Other observations

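Several genes of striatal development and peptide handling were too dim to be tested. Of 21 such probe sets in the 3 pathway lists 16 overlapped between the groups, 3 had all knockouts higher and 2 all knockouts lower, where 10.8% of all untested probe sets were separated in either direction. The separated ones follow, named after their values were seen. Six3, a homeobox factor of indirect-pathway neurons, read 31.0, 35.6 and 32.7 in the knockouts and 12.2, 22.2 and 18.5 in the wild types, each in the order of replicates 1, 2 and 3, while its other probe set read 4.35 to 5.82 on all arrays. Isl1, a factor of direct-pathway neurons, read 20.5, 17.6 and 14.5 in the knockouts and 10.8, 9.31 and 7.13 in the wild types. Ebf1, a helix-loop-helix factor of direct-pathway neurons, went the other way, with 51.6, 19.4 and 49.8 in knockout against 84.0, 66.5 and 70.4. Oprd1, the delta receptor that binds enkephalins, read 8.96, 13.3 and 15.9 in the knockouts and 20.8, 29.6 and 21.5 in the wild types. Pam, the enzyme that amidates substance P, read 117, 42.1 and 45.1 against 28.8, 3.82 and 14.1. On knockout replicate 1, where Pam was highest, pituitary markers had a median of 2.64 above the wild-type mean (log2), and the part of this in the Pam value was not tested. The other opioid receptors overlapped between the groups, with Oprk1 at 39.3 to 68.5 and Oprm1 at 3.25 to 6.15.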
